A study of Mus musculus with 6 samples.

Results

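The genes described here are 31 members of the sterol and fatty acid synthesis pathway that the SREBP transcription factors control, chosen by name. For each gene the probe set with 1 gene symbol and the highest mean over all arrays was used. Of the 31, 30 were found in this way among 19938 genes, and Acat2, the cytosolic acetoacetyl-CoA thiolase, was not analysed here. The samples were 6 whole-transcript arrays of pre-B acute lymphoblastic leukaemia cells of C57Bl/6 mice, transformed by the BCR-ABL1 fusion kinase and bearing a loxP-flanked ("floxed") Bcor allele on the X chromosome (Bcor fl/Y). In 3 of them the cells carried PMIP-CRE-ERT2, a vector for a Cre recombinase that enters the nucleus when tamoxifen binds it. The cells of the other 3 carried PMIP-ERT2, the same hormone-binding part without Cre. All 6 were puromycin-resistant cells exposed to 4OH-Tamoxifen at 0.5 micromolar for 2 days before RNA extraction. Cre activity and the reduction of Bcor, which encodes a transcriptional corepressor, therefore differ together between the groups and cannot be told apart. The labels do not say whether the arrays of a group came from separate cultures, so p-values cover only the spread between these arrays, which may be technical.

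The pathway is best known from the liver, but dividing cells in general use it to build membranes. The mevalonate arm turns acetyl-CoA into farnesyl diphosphate, the sterol arm turns that into cholesterol, and a parallel set of enzymes makes and desaturates fatty acids. When sterols run low in the endoplasmic reticulum, SCAP carries the SREBP precursors to the Golgi, where they are cut and released to activate these genes. INSIG proteins hold SCAP back when sterols are plentiful, and sterol excess also activates the LXR receptors, which raise the cholesterol exporters.

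The arrays were alike at large: their median log2 values over all probe sets ran from 8.61 to 8.68, and correlations between arrays ran from 0.989 to 0.998. Bcor, read by 1 probe set, fell by 0.96 on the log2 scale with Cre-ERT2 (SE 0.0491, limma adjusted p = 2.11e-05). Of 12 B-lineage precursor markers, which define the labelled cell type, 11 were measured, with mean log2 values from 8.24 (Dntt) to 14.23 (Igll1). Of these 11, 5 were called by limma: Dntt (0.86) and Cd24a (0.19) rose, and Rag2 (-0.71), Il7r (-0.60) and Rag1 (-0.38) fell. Their part in the values of the pathway genes was not tested. Arrays give no true zero, and no detection call was made, so no gene of any other cell type can be called absent. Of 19938 genes, limma at an adjusted p under 0.05 called 4.05% higher and 2.98% lower in Cre-ERT2.

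The SREBP factors act on promoters together with NF-Y and Sp1, so the bases just before the start sites of the members were read. RefSeq's promoter table (GRCm38.p6) held a window for 23 of the 30 measured members, 5 members of the table having several windows. It held none for Abcg1, Sqle, Fdps, Fdft1, Stard4, Scd1 and Scd2, so the promoters of these genes were not searched. The 250 bases upstream of each start were searched on both strands for 4 motifs, and matches of different motifs may overlap. The sterol regulatory element core, TCACNCCAC, was found in 1 of 23 members (4.35%), Hmgcs1, and in 1.2% of the 15614 tested genes with a window. The NF-Y motif CCAAT was found in 18 of 23 (78.3%, against 38.8%), the Sp1 motif GGGCGG in 19 (82.6%, against 49.3%) and the E-box CACGTG in 6 (26.1%, against 8.11%). A match is a run of letters and not a measured binding site. Elements with other letters, or outside the 250 bases, would not be found, so a promoter without a match may still hold one. The windows of Hmgcs1 and Insig1 are shown because both genes rose in Cre-ERT2, and that of Mvk because it held more NF-Y motif matches (5) than any other member's window while Mvk was not called. Capitals mark the sterol regulatory element core and the NF-Y motif, which reads ATTGG where it lies on the other strand. All 3 genes lie on the plus strand, at chr13:119690101-119690350 (Hmgcs1), chr5:28071162-28071411 (Insig1) and chr5:114444019-114444268 (Mvk).
Hmgcs1: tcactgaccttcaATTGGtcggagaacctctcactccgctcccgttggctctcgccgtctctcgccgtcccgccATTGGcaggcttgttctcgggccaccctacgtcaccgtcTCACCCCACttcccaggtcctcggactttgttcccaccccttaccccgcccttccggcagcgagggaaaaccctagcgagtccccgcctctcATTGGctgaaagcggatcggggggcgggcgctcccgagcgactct
Insig1: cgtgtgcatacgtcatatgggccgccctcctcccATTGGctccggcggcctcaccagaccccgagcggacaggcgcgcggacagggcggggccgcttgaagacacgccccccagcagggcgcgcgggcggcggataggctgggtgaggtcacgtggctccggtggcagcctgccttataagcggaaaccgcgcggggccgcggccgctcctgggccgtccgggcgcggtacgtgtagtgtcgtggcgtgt
Mvk: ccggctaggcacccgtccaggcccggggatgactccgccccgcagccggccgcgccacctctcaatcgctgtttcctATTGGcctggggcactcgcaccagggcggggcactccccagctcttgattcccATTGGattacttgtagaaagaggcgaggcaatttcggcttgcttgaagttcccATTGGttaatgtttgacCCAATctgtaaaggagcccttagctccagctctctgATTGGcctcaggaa
In the Hmgcs1 window the core, read TCACCCCAC, lay 137 to 129 bases before the start, between NF-Y motif matches that ended 172 and began 45 bases before it. The Insig1 window held a single NF-Y motif match, 216 to 212 bases before the start, and an E-box at 101 to 96 bases. The Mvk window held its 5 matches from 173 to 10 bases before the start and no core.

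Of the 30 measured members, 3 rose in Cre-ERT2 and 0 fell. The 3 were Abcg1, a cholesterol exporter, Hmgcs1, the HMG-CoA synthase of the mevalonate arm, and Insig1, the sterol-sensing brake on SREBP processing. The share called higher was 10% of the members, against 4.05% of all genes and 6.42% of the brighter 50% of genes, to which 29 of the members belong. At an unadjusted limma p under 0.05 there were 6 members higher and 1 lower of 30, where 8% of all genes were higher and 15% lower. Every change was small: the log2 fold changes of the members ran from -0.13 (Lss) to 0.23 (Abcg1), with a median of 0.03, against -0.04 over all genes and -0.02 over the brighter 50%. A value above 0 was seen for 20 of 30 members (66.7%), against 31.8% of all genes and 40.2% of the brighter 50%. The Cre-ERT2 arrays all lay above the ERT2 arrays for 9 members (30%), against 9.56% of all genes and 15.2% of the brighter 50%. They all lay below for 1 member (3.33%), against 20.3% and 22.5%. In bulk RNA a change in the share of cells that express a gene and a change in RNA per cell cannot be told apart.

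**Figure D1:**
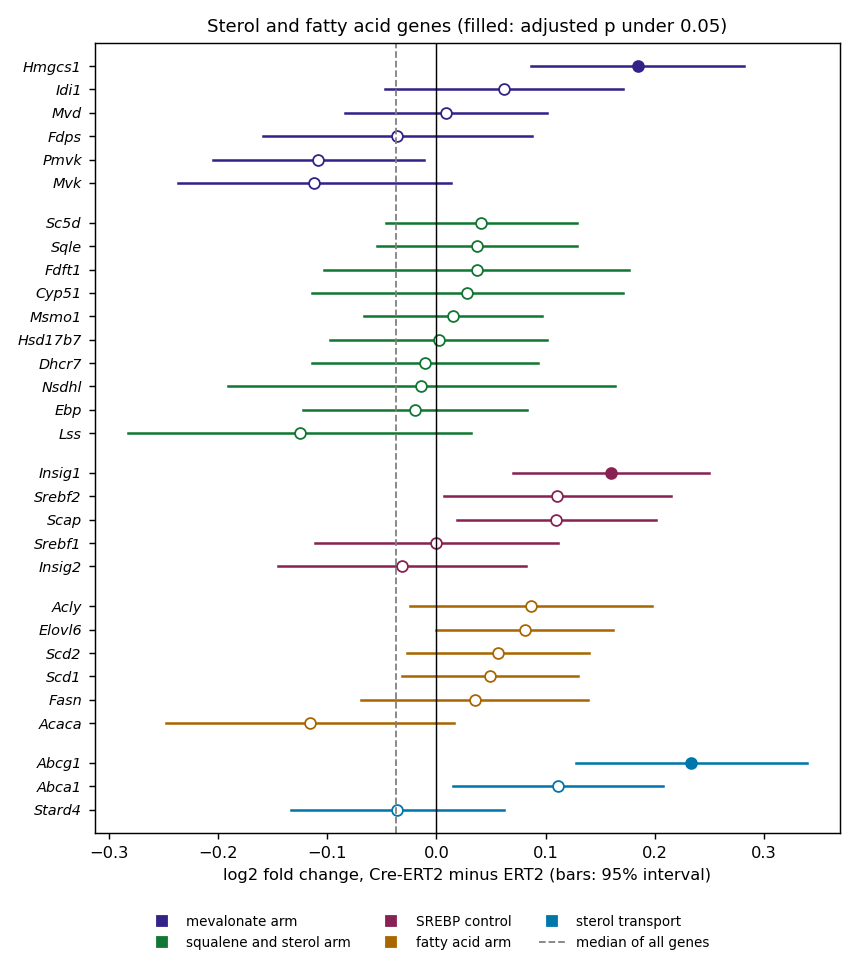
Log2 fold change of each of the 30 measured members, Cre-ERT2 minus ERT2, with its 95% interval from limma (3 arrays per group), coloured by role; filled points have an adjusted p under 0.05 and the dashed line is the median of all genes. Abcg1, Hmgcs1 and Insig1 are the filled points, and the 10 members of the squalene and sterol arm all have intervals that include 0.

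In the mevalonate arm, 1 of 6 measured members rose, 0 fell and 5 were not called, with a median log2 fold change of -0.01. Hmgcs1, which condenses acetyl-CoA with acetoacetyl-CoA to form HMG-CoA, had log2 values of 11.47, 11.45 and 11.46 in ERT2 arrays 1 to 3 and 11.61, 11.61 and 11.72 in Cre-ERT2 arrays 1 to 3. The ERT2 values lay close together, and each Cre-ERT2 array was above all of them. Its log2 fold change was 0.18 (SE 0.0428, limma adjusted p = 0.0379), a 1.14-fold rise from 11.46 ± 0.0122 to 11.64 ± 0.0626 (SD, 3 arrays each). The call of Hmgcs1 ended with each of the 6 arrays left out in turn, while the log2 fold change stayed between 0.15 and 0.20. The limma adjusted p then ran from 0.0639 (without Cre-ERT2 replicate 3) to 0.108 (without ERT2 replicate 1). The call also ended with the replicate number fitted as a block (limma adjusted p = 0.0883).

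The kinases that follow stood lower in Cre-ERT2 without passing the test. Pmvk, phosphomevalonate kinase, had log2 values of 9.63, 9.53 and 9.60 in ERT2 and 9.46, 9.47 and 9.52 in Cre-ERT2. It was the only measured member whose Cre-ERT2 arrays all lay below the ERT2 arrays, by a narrow margin. Its log2 fold change was -0.11 (SE 0.0422, limma adjusted p = 0.172). Mvk, mevalonate kinase, had 10.52, 10.55 and 10.70 in ERT2 and 10.46, 10.44 and 10.54 in Cre-ERT2. The groups overlapped, because Cre-ERT2 array 3 was above ERT2 array 1. The log2 fold change of Mvk was -0.11 (SE 0.0548, limma adjusted p = 0.264). The other measured members of the arm, the decarboxylase Mvd (0.01), the isomerase Idi1 (0.06) and the farnesyl diphosphate synthase Fdps (-0.04), had overlapping groups and intervals within -0.16 to 0.17. Idi1 had a second probe set, and its log2 fold change was 0.07.

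The squalene and sterol arm showed no called member among 10, and 0 of the 10 reached an unadjusted limma p under 0.05, a mark that 23% of all genes reached in either direction. Its median log2 fold change was 0.01. The groups overlapped for all 10 members, and for 13980 of all 19938 genes. The enzymes of this arm are the squalene synthase Fdft1 (0.04), the epoxidase Sqle (0.04), the cyclase Lss (-0.13), the demethylases and dehydrogenases Cyp51 (0.03), Msmo1 (0.02), Nsdhl (-0.01) and Hsd17b7 (0.00), the isomerase Ebp (-0.02), the desaturase Sc5d (0.04) and the reductase Dhcr7 (-0.01). The 95% intervals are not adjusted and cover only the spread between these arrays. For 9 of the 10 they lay between -0.2 and 0.2 on the log2 scale. The exception was Lss, whose interval ran from -0.28 to 0.03.

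Lss also shows how much single arrays varied. Its log2 values were 11.20, 11.45 and 11.35 in ERT2 and 11.13, 11.21 and 11.29 in Cre-ERT2. ERT2 array 1 was below Cre-ERT2 arrays 2 and 3, and the group SDs were 0.127 and 0.0806, beside a difference between groups of -0.13 (SE 0.0688, limma adjusted p = 0.316). Nsdhl, an X-linked sterol dehydrogenase, had 11.59, 11.86 and 11.75 in ERT2 and 11.61, 11.83 and 11.72 in Cre-ERT2. Array 1 was the lowest and array 2 the highest in both groups, and the group means differed by 0.01. Msmo1, the C4 sterol methyl oxidase, ran from 12.17 to 12.20 in ERT2 and from 12.19 to 12.21 in Cre-ERT2, a total spread smaller than the spread of Nsdhl within either group. Both Fdft1 probe sets had small log2 fold changes, 0.04 and 0.02.

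Among the 5 genes that control SREBP activity, Insig1 rose, 0 fell and 4 were not called, with a median of 0.11. Insig1, itself a target of SREBP in textbook accounts, had log2 values of 11.95, 11.94 and 11.996 in ERT2 and 12.12, 12.08 and 12.15 in Cre-ERT2. The groups did not overlap. Its log2 fold change was 0.16 (SE 0.0394, limma adjusted p = 0.0476), from 11.96 ± 0.0321 to 12.12 ± 0.0349 (SD, 3 arrays each), a 1.12-fold rise. That call sat near the threshold. It ended with each array left out in turn, at limma adjusted p from 0.0605 (without ERT2 replicate 3) to 0.155 (without ERT2 replicate 1). It also ended after median centring of the arrays (limma adjusted p = 0.101) and with the replicate number fitted as a block (0.0876). Insig2, a relative of Insig1 that also retains SCAP, did not pass, at -0.03 (SE 0.0498, limma adjusted p = 0.734, 95% interval from -0.15 to 0.08). Whether Insig1 and Insig2 differed in their response was not tested.

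Scap, the escort and sterol sensor, had log2 values of 11.97, 11.97 and 12.05 in ERT2 and 12.09, 12.10 and 12.12 in Cre-ERT2. All Cre-ERT2 arrays were above the ERT2 arrays, and the difference was 0.11 on the log2 scale (SE 0.0399, limma adjusted p = 0.147). Srebf2, which encodes the SREBP that favours cholesterol genes, had 11.86, 11.88 and 11.94 in ERT2 and 11.995, 11.94 and 12.07 in Cre-ERT2. ERT2 array 3 and Cre-ERT2 array 2 nearly touched, and the log2 fold change was 0.11 (SE 0.0456, limma adjusted p = 0.192). Srebf1, which encodes the SREBP forms tied to fatty acid synthesis, averaged 10.95 in both groups, with a log2 fold change of 0.00 (95% interval from -0.11 to 0.11). These are transcript levels, and processing of the SREBP proteins was not measured.

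**Figure D2:**
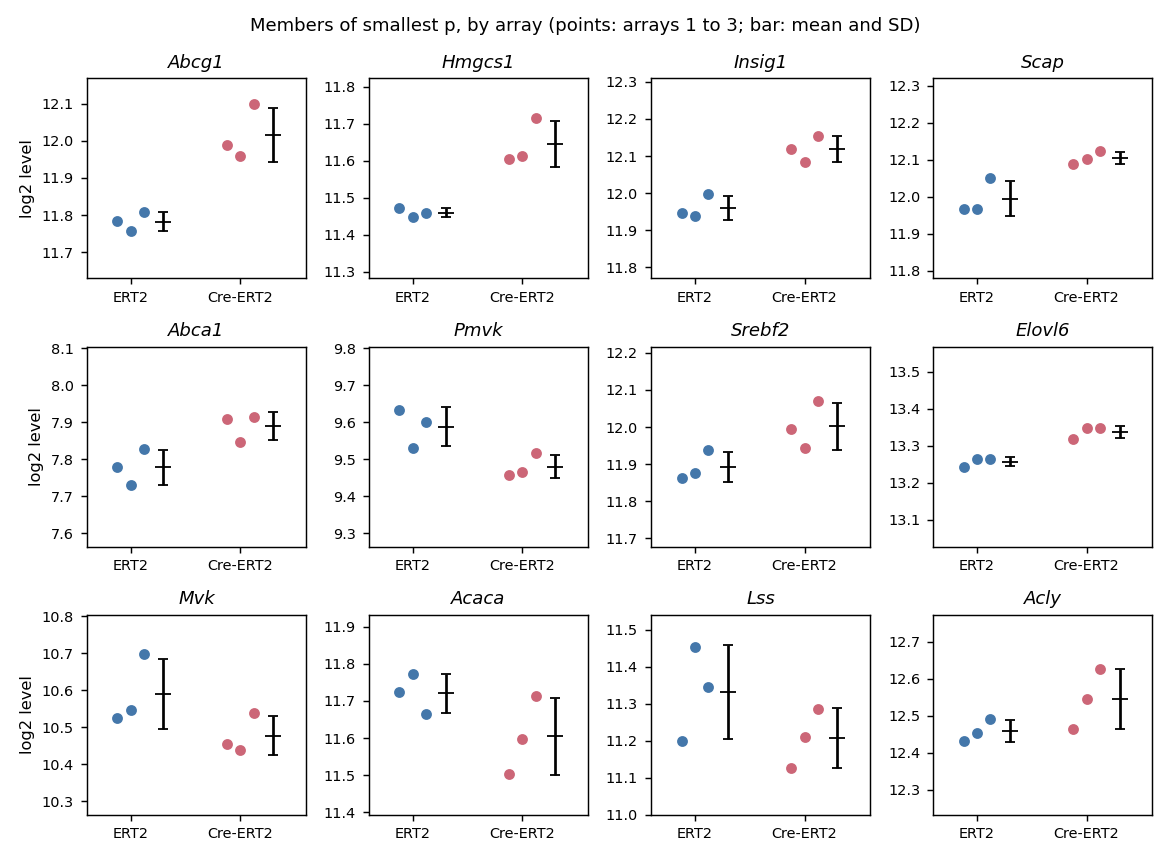
Log2 level on each array of the 12 members with the smallest p, ERT2 (blue) and Cre-ERT2 (red), arrays 1 to 3 from left to right, with the mean and SD of 3 arrays in black; every panel spans the same number of log2 units. Abcg1, Hmgcs1 and Insig1 have the widest gaps between groups, while Lss, Mvk, Acaca and Acly overlap.

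In the fatty acid arm 0 of 6 members were called and 0 reached an unadjusted limma p under 0.05, against 23% of all genes. The median log2 fold change was 0.05. The 2 stearoyl-CoA desaturases and the elongase Elovl6 stood slightly higher in every Cre-ERT2 array. Elovl6, which lengthens palmitate, had log2 values of 13.24, 13.26 and 13.26 in ERT2 and 13.32, 13.35 and 13.35 in Cre-ERT2. The groups did not overlap, and the log2 fold change was 0.08 (SE 0.0355, limma adjusted p = 0.218). Scd2 had 13.93, 13.90 and 13.91 in ERT2 and 13.99, 13.97 and 13.95 in Cre-ERT2. Its lowest Cre-ERT2 array was just above its highest ERT2 array. The group means differed by 0.06 on the log2 scale (SE 0.0364, limma adjusted p = 0.388). Scd1 was at 0.05 (SE 0.0353, limma adjusted p = 0.434). Scd1 and Scd2 are close relatives, and their probes may read each other's transcripts.

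Acly, which supplies cytosolic acetyl-CoA from citrate to both branches, had log2 values of 12.43, 12.45 and 12.49 in ERT2 and 12.46, 12.55 and 12.63 in Cre-ERT2. Cre-ERT2 array 1 fell within the ERT2 range, and the log2 fold change was 0.09 (SE 0.0486, limma adjusted p = 0.324). Acaca, the acetyl-CoA carboxylase that commits carbon to fatty acids, had 11.72, 11.77 and 11.66 in ERT2 and 11.50, 11.60 and 11.71 in Cre-ERT2. Its Cre-ERT2 arrays were spread widely (SD 0.104) and array 3 reached into the ERT2 range, so the log2 fold change of -0.12 (SE 0.0579) did not pass (limma adjusted p = 0.274). A second Acaca probe set was at -0.05. Fasn, the fatty acid synthase, was at 0.03 (SE 0.0455, limma adjusted p = 0.676).

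Sterol transport held the member with the largest change. Abcg1, an ATP-binding cassette exporter that passes cholesterol to lipoproteins, had log2 values of 11.78, 11.76 and 11.81 in ERT2 and 11.99, 11.96 and 12.10 in Cre-ERT2. The groups were clearly apart, and Cre-ERT2 array 3 was the highest. The log2 fold change was 0.23 (SE 0.0463, limma adjusted p = 0.0190), from 11.78 ± 0.0260 to 12.02 ± 0.0733 (SD, 3 arrays each), a 1.18-fold rise. Its call ended without ERT2 replicate 1 (limma adjusted p = 0.0728), ERT2 replicate 2 (0.0644) or Cre-ERT2 replicate 1 (0.0504).

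Abca1, the exporter that loads apolipoproteins with cholesterol, had log2 values of 7.78, 7.73 and 7.83 in ERT2 and 7.91, 7.85 and 7.91 in Cre-ERT2. All Cre-ERT2 arrays were above the ERT2 arrays, narrowly, and the log2 fold change was 0.11 (SE 0.0421, limma adjusted p = 0.161). Abca1 had the lowest mean of the measured members and lay among the dimmest 30% of all genes. Stard4, a carrier that moves sterols between membranes and is induced by SREBP, was at -0.04 (SE 0.0430, limma adjusted p = 0.650) with overlapping groups. Macrophages are known for both exporters, so the 8 myeloid markers were read beside them. Of these 8, Lyz2 rose by 0.45 on the log2 scale (SE 0.0662, limma adjusted p = 0.00488), 0 fell and 7 were not called. The 7 were Elane (-0.13), Csf1r (-0.10), Mpo (-0.07), Cd14 (-0.00), Adgre1 (0.04), Cd68 (0.05) and Itgam (0.06). The sum of the log2 values of all 8 ran from 65.9 to 66.2 in ERT2 and from 66.3 to 66.4 in Cre-ERT2. That sum includes Lyz2, which had the largest change of the 8. With Lyz2 left out, the order was reversed: the sum of the other 7 was lower in every Cre-ERT2 array than in every ERT2 array. None of the markers can be placed at 0 on these arrays, and their part in the exporter values was not tested.

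**Figure D3:**
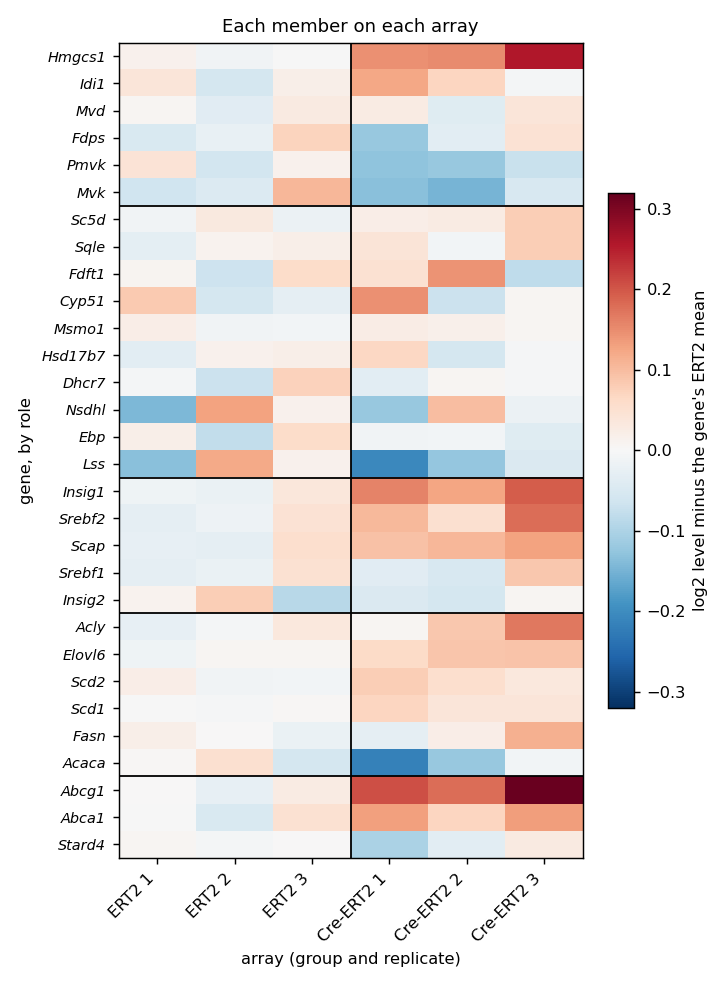
Log2 level of each of the 30 measured members on each of the 6 arrays, as the difference from the mean of that gene over the ERT2 arrays (red higher, blue lower), grouped by role from the mevalonate arm at the top to sterol transport at the bottom. Hmgcs1, Insig1 and Abcg1 are red in all 3 Cre-ERT2 arrays, and the sterol arm shows no column that differs throughout.

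The values of each role were also averaged by array. Averaged over the 16 measured genes of both cholesterol-making arms, the deviation from the ERT2 mean was -0.01, -0.01 and 0.01 in Cre-ERT2 arrays 1 to 3, inside the range of the ERT2 arrays (-0.01, -0.01 and 0.03). Averaged over the 5 control genes it was 0.05, 0.04 and 0.12 in Cre-ERT2, against -0.02, -0.00 and 0.02 in ERT2. The average over the 3 transport genes was 0.08, 0.07 and 0.16, against 0.00, -0.03 and 0.02. For the 6 fatty acid genes the averages were -0.00, 0.03 and 0.07 in Cre-ERT2 and between -0.01 and 0.01 in ERT2. Cre-ERT2 array 3 was the highest of its group in each of these averages, and it was also the highest of its group over all 19938 genes, at -0.00 against -0.03 for the other two. Without it the median log2 fold change of the members was 0.02 and that of all genes -0.05.

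Other genes of sterol and fatty acid metabolism were taken from a list of 37, of which 29 were measured and the other 8 were not analysed here. Of the 29, 1 rose, 0 fell and 28 were not called by limma, with a median log2 fold change of -0.02. At an unadjusted p under 0.05 there were 4 higher and 3 lower, where 8% of all genes were higher and 15% lower. The gene that rose was Mylip, a ubiquitin ligase that sends lipoprotein receptors for degradation. Its log2 values were 10.09, 10.09 and 10.06 in ERT2 and 10.22, 10.24 and 10.30 in Cre-ERT2. The groups did not overlap, and their means differed by 0.17 on the log2 scale (SE 0.0387, limma adjusted p = 0.0332). The call of Mylip ended with each array left out in turn (limma adjusted p from 0.0653 to 0.105). It also ended with the replicate number fitted as a block (0.0948), after quantile normalization (0.0659) and after median centring (0.0512). Nr1h3, which encodes the LXR alpha receptor, was at -0.03 with overlapping groups. The other LXR gene, Nr1h2, was among the 8 not analysed here.

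The other 6 genes of that list with an unadjusted p under 0.05 were named after their values were seen, and none was called. Npc1 and Npc2, which together export cholesterol from lysosomes, were at 0.14 (SE 0.0403, limma adjusted p = 0.0775) and 0.16 (SE 0.0467, limma adjusted p = 0.0892), with every Cre-ERT2 array above every ERT2 array for both. The desaturase Fads2 was at 0.14 (SE 0.0445, limma adjusted p = 0.0972), and Me1, the malic enzyme that supplies NADPH for fatty acid synthesis, at -0.12 (SE 0.0383, limma adjusted p = 0.112). Gpam, which starts glycerolipid synthesis, was at -0.14 (SE 0.0566, limma adjusted p = 0.192), and Mid1ip1, a protein that promotes polymerization of acetyl-CoA carboxylase, at -0.12 (SE 0.0507, limma adjusted p = 0.211).

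**Figure D4:**
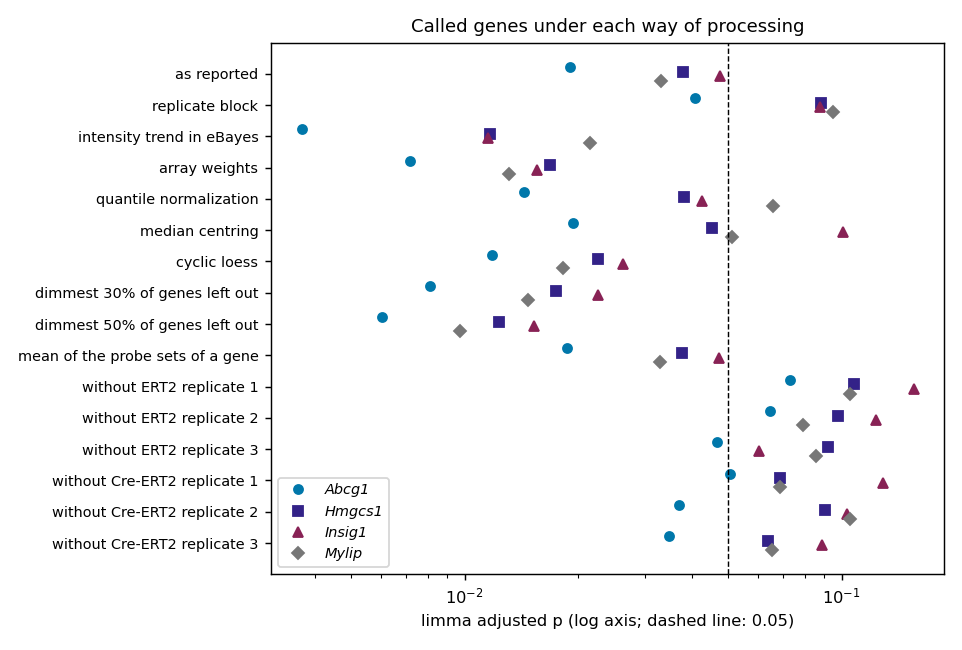
Limma adjusted p of Abcg1, Hmgcs1, Insig1 and Mylip (log axis) for the reported fit and for each of 15 other ways of processing, with the threshold of 0.05 as a dashed line. Abcg1 lies left of the line in 12 of the 15, Hmgcs1 in 8 and Insig1 in 7.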

How the data were processed

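Expression was measured on 6 Affymetrix arrays, 3 Cre-ERT2 and 3 ERT2. The deposited table gives a log2 expression value for each probe set and array. The submitters' processing notes name RMA and Partek 6.5, and the background setting and genome build are not given in the sources used here. Probe sets were matched to genes by GEO's platform annotation. A single gene symbol was given for 21789 of the 35556 probe sets. The 1621 probe sets with several symbols and the 12146 without a listed gene were left out. The number of arrays limits the precision (median residual SD 0.0587). The members, lists and tests were chosen with earlier results of these data known. Differences, Cre-ERT2 minus ERT2, were tested with limma 3.58.1 (lmFit, eBayes without trend) in R 4.3.3 with data.table (version 1.17.8), and Benjamini-Hochberg adjustment covered all 19938 genes. SE is the moderated standard error and intervals are 95%, unadjusted. Values of every array are given for the 12 members of smallest p and for the members of highest and lowest mean, and the called genes of the other pathway list were named. The pipeline was tested on simulated data with added changes larger than that of any member, so the test does not cover changes as small as theirs. Alternatives were the replicate block, an intensity trend, array weights, quantile normalization, median centring, cyclic loess, removal of the dimmest 30% or 50% of genes, averaging of probe sets per gene, and each array left out. The brighter 50% of genes as a background was added after the data were seen. Figures used Python 3.11.15, pandas 2.3.3 and matplotlib 3.10.9.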

Additional observations from a re-analysis of the deposited data

How the results depend on the processing

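Under 15 other ways of processing, Abcg1, Hmgcs1 and Insig1 stayed above 0 in all 15 and were called in 12, 8 and 7. The count of members called higher, 3 as reported, was 1 with the replicate block and 0 to 1 with an array left out. It was 0 without ERT2 replicate 1, ERT2 replicate 2 or Cre-ERT2 replicate 1, and Abcg1 alone was called without each of the others. The share of all genes called higher also fell, from 4.05% as reported to 2.74% with the replicate block and 2.57% to 3.58% with an array left out. The count called lower was 1 (Pmvk, adjusted p = 0.0328) with array weights, where Scap was also called higher (adjusted p = 0.0368), and 0 otherwise. Array weights called 6.6% of all genes higher and 10.2% lower, against 4.05% and 2.98% as reported. The median log2 fold change of members was 0.046 after cyclic loess and 0.018 to 0.038 with an array left out. Of the other pathway genes, 1 called as reported, the count was 0 with the replicate block, quantile normalization, median centring or any array left out. It was 3 after cyclic loess or without the dimmest 30%, 4 with the intensity trend or without the dimmest 50%, and 5 with array weights. Of all 19938 genes, 1402 were called as reported, 805 with the replicate block, 1156 after quantile normalization and 1066 after median centring. With an array left out 743 to 1341 were called, after cyclic loess 1417, with the intensity trend 1823 and with array weights 3339. Without the dimmest 30% it was 1750 of 13956, and without the dimmest 50% 1701 of 9969. With the replicate block, adjusted p was 0.0883 for Hmgcs1, 0.0876 for Insig1 and 0.0948 for Mylip. The labels do not say whether same-numbered arrays are paired. Their deviations from the group means correlated at 0.05, -0.09 and -0.26, and those of differently numbered arrays at -0.29 to 0.31. With 3 arrays per group these values cannot settle the pairing. Bcor was called in all 15. The cause of these shifts was not tested, beyond the fewer arrays or genes that some of them hold.

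Signs turned only among members that were called neither as reported nor in the alternative. With array weights Mvd was at -0.011, Cyp51 at -0.034, Nsdhl at 0.084 and Srebf1 at -0.013. Quantile normalization put Mvd at -0.0087 and Nsdhl at 0.0030, median centring put Srebf1 at -0.00081, and cyclic loess put Nsdhl at 0.0017 and Dhcr7 at 0.0033. With an array left out, the lowest and highest log2 fold changes were -0.030 and 0.031 for Hsd17b7, -0.044 and 0.025 for Srebf1, -0.0085 and 0.033 for Mvd, -0.085 and 0.051 for Nsdhl, -0.076 and 0.0076 for Insig2, -0.077 and 0.0068 for Fdps, -0.059 and 0.0097 for Ebp, -0.045 and 0.026 for Dhcr7, -0.030 and 0.077 for Cyp51, -0.016 and 0.096 for Fdft1, and -0.0041 and 0.067 for Fasn.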
